A study of Mus musculus with 6 samples.

Results

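Glutathione transferases and the enzymes that make, recycle and use glutathione were examined in mouse liver 24 h after acetaminophen (APAP) overdose. The members were the genes whose symbols mark them as cytosolic, kappa or microsomal glutathione transferases, pseudogenes left out, together with Gclc, Gclm, Gss, Gsr, Ggt1, Ggt5, Ggt6, Ggct, Oplah, Glo1 and Hagh. They came to 36 of the 28476 genes in the deposited table, 25 of them transferases. The rule itself uses gene names and no measured value, but it was chosen with earlier results of these data known.

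APAP is turned by liver cytochrome P450 enzymes into a reactive quinone imine, which glutathione traps either spontaneously or through a transferase. Glutathione is built from glutamate, cysteine and glycine by glutamate-cysteine ligase (a catalytic subunit, Gclc, and a modifier subunit, Gclm) and glutathione synthetase (Gss), and its oxidised form is reduced again by glutathione reductase (Gsr). Many of these genes are known targets of the transcription factor NRF2, which binds antioxidant response elements.

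Livers came from C57BL/6 mice fasted overnight and given 300 mg/kg APAP into the peritoneum, 3 labelled Flox and 3 labelled HepKO with Nedd4 as the named gene. Nedd4 encodes a HECT-type ubiquitin ligase. Nedd4 had 2.18, 2.59 and 2.23 FPKM in Flox against 0.618, 0.666 and 0.565 FPKM in HepKO libraries, so the groups did not overlap. The promoter that drove the deletion, the animals' age and sex, and whether each library is 1 animal are not stated, so the p-values rest on library-to-library spread, which may be technical. Both groups received APAP, and livers without it are not analysed here.

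FPKM counts fragments relative to transcript length and to the library's total, and levels can therefore be set side by side between genes. Each library summed to 456176 to 496303 FPKM, and the number of reads behind them is unknown. HepKO replicate 1 stood apart in that mitochondrial genome transcripts made up 24.6% of its FPKM, against 16.7% to 18.3% in the other 5 libraries. Summed levels of 8 hepatocyte markers were 34739.8 to 41451 FPKM in Flox against 38288 to 43019 FPKM in HepKO livers. Most of this came from Alb (means of 25956 and 26922 FPKM). Ttr, Hnf4a and Asgr1 were lower without overlap, and the last 2 passed. Apoa1 was higher without overlap and did not pass. Of the 8 markers, 3 had a log2 fold change below 0, and the median was 0.14. In whole liver, fewer cells of a type and less RNA per cell cannot be told apart.

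Every member that passed the test was lower in HepKO livers. Of 31 members with a mean of at least 0.5 FPKM, 10 were lower and 0 were higher, while 21 did not pass (limma on log2(FPKM + 1), Benjamini-Hochberg adjusted p 0.05). Among all 12712 genes tested, 11.0% were lower and 9.33% higher, against 32.3% of the tested members lower. At an unadjusted p of 0.05, 15 members were lower and 1, Ggct, was higher, beside 2660 lower and 1876 higher of all 12712 genes tested. The median log2 fold change of the tested members was -0.42, beside -0.06 over all genes tested, and 25 of the 31 had a value below 0 (80.6%, beside 56.6% of all genes tested; 24 to 26 under the rescalings tried). Group ranges did not overlap for 15 members that were lower and 1 that was higher in HepKO livers, while 25.2% and 17.2% of all genes tested did so.

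The 10 members that fell were Gsta3, Gstm4, Gstm6, Gstp3, Gstt2, Mgst1, Mgst3, Gclm, Glo1 and Hagh. They came from 5 transferase classes and from 2 other steps, glutathione synthesis and the glyoxalase pair. In the authors' deposited table, 8 of the 36 members had a q-value below 0.05, namely Gsta3, Gstm3, Gstm4, Gstt2, Mgst3, Gclm, Glo1 and Hagh. Of all its 28476 genes 8.97% did, but only 12712 of those reached a mean of 0.5 FPKM, against 31 members. These shares are therefore not like for like. The number lower was 5 without Flox replicate 2, 6 without HepKO replicate 1 and 6 without HepKO replicate 2, where 4.98%, 6.14% and 4.84% of all genes tested were lower. The calls of Gsta3, Gstm4, Gclm, Glo1 and Hagh held whichever library was left out, with adjusted p of at most 0.025.

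**Figure D1:**
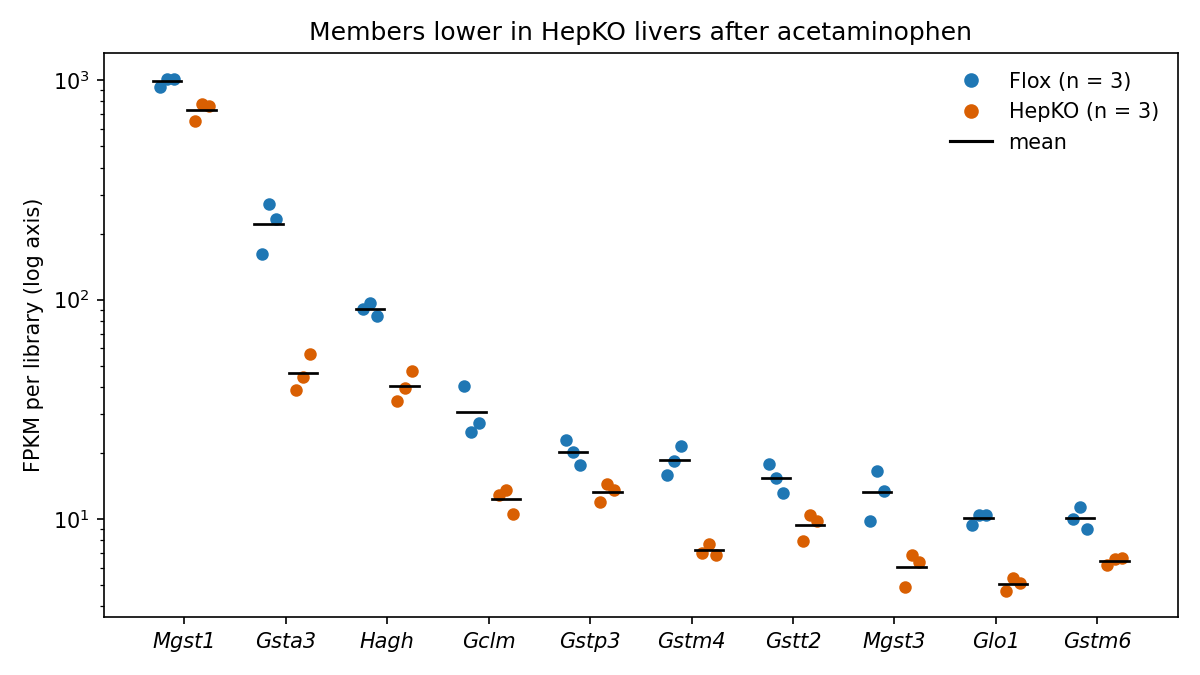
FPKM of each library (log axis) for the 10 members that fell, Flox in blue and HepKO in orange, with group means as black lines, n = 3 each. In each gene the highest HepKO library lies below the lowest Flox library, from Mgst1 near the top of the range (989 and 731 FPKM) to Glo1 (10.1 and 5.05 FPKM).

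Promoters are shown for 3 of the members that fell, those with the core of an antioxidant response element in the 250 bases before the start. A link between the core and the fall was not tested. The core TGACNNNGC was searched on both strands in RefSeq windows of 300 bases, 250 before to 50 after each start (GRCm38.p6). It was present in at least 1 window of 8 of the 30 members with a window, and of 4 of the 9 fallen members with one, while 3781 of all 27025 genes in that table, and 12.4% of all windows, held it. The 4 fallen members were Gsta3, Gclm, Mgst1 and Hagh. The core was also present in Ggct, Ggt1, Gstm5 and Gstm7, and none of these was called lower. The mean of Ggct went up from 0.756 to 1.24 FPKM and that of Ggt1 from 0.0239 to 0.123 FPKM, each without overlap. Ggct did not pass, and Ggt1 was too low to test. Gstm5 and Gstm7 did not pass either (log2 fold changes of -0.08 and -0.15). In Hagh the core lay after the start, and Gstt2 had no window. The 250 bases before the start follow, on the gene's strand, with the core in capitals. The coordinates are chr1:21240335-21240584 for Gsta3, chr3:122245307-122245556 for Gclm and chr6:138140277-138140526 for Mgst1, all on the plus strand.
Gsta3: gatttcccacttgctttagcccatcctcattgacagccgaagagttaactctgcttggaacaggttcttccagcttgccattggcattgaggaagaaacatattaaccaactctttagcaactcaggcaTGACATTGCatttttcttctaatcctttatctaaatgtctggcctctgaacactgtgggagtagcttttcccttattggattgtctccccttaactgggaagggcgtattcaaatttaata
Gclm: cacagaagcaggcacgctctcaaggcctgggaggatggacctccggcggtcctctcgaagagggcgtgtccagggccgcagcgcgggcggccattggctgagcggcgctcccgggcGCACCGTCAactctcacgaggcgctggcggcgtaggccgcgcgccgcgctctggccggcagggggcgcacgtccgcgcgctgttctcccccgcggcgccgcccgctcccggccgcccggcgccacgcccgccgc
Mgst1: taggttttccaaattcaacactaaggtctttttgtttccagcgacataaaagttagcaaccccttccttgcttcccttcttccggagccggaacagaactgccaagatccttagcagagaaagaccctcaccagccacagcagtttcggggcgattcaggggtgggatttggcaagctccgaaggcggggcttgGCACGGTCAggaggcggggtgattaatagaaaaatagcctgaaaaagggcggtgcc
The core begins 121 bases before the start in Gsta3, where it reads TGACATTGC, and 134 and 56 bases before it in Gclm and Mgst1, where it lies on the opposite strand (GCACCGTCA and GCACGGTCA). A match of letters is a description of the sequence and does not show that a factor binds there. The regulators of these genes are described after the members.

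Alpha-class transferases, dimeric cytosolic enzymes that conjugate electrophiles and reduce lipid peroxides, split by gene. Gsta3, whose mouse enzyme is known for detoxifying aflatoxin epoxide, showed the largest fall of the 31 tested members. Flox livers had 161, 273 and 232 FPKM of it against 38.6, 44.6 and 56.3 FPKM in HepKO. The highest HepKO value was well under the lowest Flox value. The means, 222 ± 56.9 and 46.5 ± 8.96 FPKM (SD, n = 3), differed 4.77-fold (log2 fold change -2.21, SE 0.23, limma adjusted p = 0.0017). Gsta3 lies on chromosome 1, 21240589 to 21265661 (ENSMUSG00000025934, GRCm38), apart from the other 3 alpha members, which sit together on chromosome 9. Gm28836, an opposite-strand gene that overlaps Gsta3, had 1.28 FPKM in Flox against 0.041 FPKM in HepKO livers.

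The chromosome 9 alpha genes did not pass. Gsta1, the most abundant of them, had 302, 346 and 363 FPKM in Flox against 336, 451 and 418 FPKM in HepKO livers. The groups overlapped, and the log2 fold change of 0.25 came with a 95% limma interval of -0.10 to 0.59. Of the 100-base stretches of Gsta1 transcripts, 80.6% occur in transcripts of Gsta2, Gm10639 or Gm3776, and 28.4% of those of Gsta2 occur in another gene, so the split of reads among these copies is uncertain. Gsta2 had means of 38.0 and 30.8 FPKM, and Gsta4, known for conjugating the lipid aldehyde 4-hydroxynonenal, 20.5 and 21.1 FPKM. The ratio of Gsta1 to Gsta3 within a library was 1.27 to 1.88 in Flox and 7.42 to 10.1 in HepKO livers. Summed without Gsta3, alpha transcripts had 395 ± 47.1 FPKM in Flox against 453 ± 66.4 FPKM in HepKO livers (SD, n = 3), with overlapping ranges.

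Mu-class genes lie side by side, 7 of them within 149 kb of chromosome 3 (107895821 to 108044894), and their differences were unequal. All 7 had a negative log2 fold change, under every rescaling tried too, though that of Gstm5 was 0.01 without Flox replicate 1, and 2, Gstm4 and Gstm6, passed. Gstm4 had 15.9, 18.4 and 21.5 FPKM in Flox against 7.01, 7.71 and 6.87 FPKM in HepKO livers, without overlap and with HepKO values close together. Its means differed 2.58-fold (log2 fold change -1.25, SE 0.13, limma adjusted p = 0.0019). Gstm6 had 10, 11.3 and 8.97 FPKM in Flox against 6.17, 6.57 and 6.61 FPKM in HepKO livers, again without overlap (log2 fold change -0.57, SE 0.11, adjusted p = 0.015). Its adjusted p was above 0.05 without Flox replicate 2 (0.0528) or HepKO replicate 2 (0.056).

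Gstm1, the dominant mu transcript in these livers, had 344, 443 and 512 FPKM in Flox against 376, 343 and 250 FPKM in HepKO livers. The ranges overlapped, since Flox replicate 1 lay below HepKO replicate 1, and the gene did not pass (log2 fold change -0.42, 95% interval -0.91 to 0.07, adjusted p = 0.19). Gstm2 and Gstm3 missed the threshold narrowly, with means of 8.03 and 5.52 FPKM (adjusted p = 0.0506) and of 6.68 and 2.67 FPKM (0.057); neither overlapped between groups. Without Flox replicate 1, whose Gstm3 level of 3.80 FPKM was close to the 3.77 FPKM of HepKO replicate 1, Gstm3 passed (adjusted p = 0.020). Of its 100-base stretches, 13.8% occur in another gene's transcripts. Gstm5 and Gstm7, at the end of the cluster away from Gstm4, had means of 6.15 and 5.69 FPKM and of 10.5 and 9.29 FPKM, with log2 fold changes of -0.08 and -0.15. The 6 mu genes other than Gstm1 summed to 60.1 ± 3.71 FPKM in Flox against 36.8 ± 1.39 FPKM in HepKO livers (SD, n = 3), a 1.63-fold difference.

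Pi-class transferases are the most abundant class in these livers, and mice that lack the pi genes are known to resist APAP injury. Gstp1 had 1225, 1423 and 1297 FPKM in Flox against 1136, 1279 and 1097 FPKM in HepKO livers. It was the top transferase in both groups, the ranges overlapped and it did not pass (log2 fold change -0.17, 95% interval -0.43 to 0.10). Gstp2 had 199, 144 and 193 FPKM in Flox against 105, 101 and 165 FPKM in HepKO livers, with HepKO replicate 3 inside the Flox range. It did not pass with all libraries (adjusted p = 0.13) but passed without HepKO replicate 3 (adjusted p = 0.035). Gstp1 and Gstp2 are near-identical copies on chromosome 19, and 25.1% and 46.9% of their 100-base stretches occur in another gene, so their single levels are uncertain.

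Gstp3, the third gene of the pi cluster, shares no such stretch. It had 22.9, 20.1 and 17.7 FPKM in Flox against 11.9, 14.4 and 13.6 FPKM in HepKO livers, without overlap. The means of 20.3 ± 2.62 and 13.3 ± 1.27 FPKM differed 1.53-fold (log2 fold change -0.57, SE 0.13, adjusted p = 0.026). Its call held only without Flox replicate 3. Adjusted p was above 0.05 without Flox replicate 1 (0.057), Flox replicate 2 (0.079), HepKO replicate 1 (0.067), HepKO replicate 2 (0.059) or HepKO replicate 3 (0.0517).

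Theta-class genes act on small halogenated molecules and peroxides and form a 4-gene cluster on chromosome 10. Gstt2 (75831114 to 75837424) had 17.8, 15.3 and 13.2 FPKM in Flox against 7.96, 10.4 and 9.74 FPKM in HepKO livers. These ranges did not overlap, and the gene fell 1.64-fold (log2 fold change -0.66, SE 0.15, limma adjusted p = 0.025). Adjusted p rose past 0.05 without Flox replicate 1 (0.056), Flox replicate 2 (0.075), HepKO replicate 1 (0.062) or HepKO replicate 2 (0.0512). Gstt1, the most abundant theta gene, had means of 46.0 and 35.2 FPKM without overlap and did not pass (adjusted p = 0.085). Gstt3 had means of 10.2 and 12.8 FPKM and a log2 fold change of 0.33, with a 95% interval of -0.14 to 0.81. Gm20441, which overlaps Gstt3 on the same strand, was listed at 0 in all Flox livers and had a mean of 3.87 FPKM in HepKO livers, and 10.8% of the 100-base stretches of Gstt3 occur in it.

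The 3 classes with a single tested gene, omega, zeta and kappa, gave no calls. Gsto1, an omega-class enzyme that reduces dehydroascorbate and forms mixed disulphides, had nearly equal levels, 68.8 ± 3.88 FPKM in Flox against 69.6 ± 5.26 FPKM in HepKO livers (SD, n = 3), and its log2 fold change of 0.02 had an interval of -0.23 to 0.26. It was -0.04 with libraries set to the same total FPKM. Gstz1, the zeta-class maleylacetoacetate isomerase of tyrosine breakdown, had 35.6 and 29.1 FPKM without overlap (adjusted p = 0.15). Gstk1, the kappa enzyme of mitochondria and peroxisomes, had 37.0 and 34.7 FPKM (log2 fold change -0.08, and 0.00 after median-ratio rescaling).

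Microsomal transferases belong to a separate family of membrane enzymes, and both tested members fell. Mgst1, found on the endoplasmic reticulum and outer mitochondrial membrane, was the second most abundant transferase transcript in both groups. It had 936, 1015 and 1017 FPKM in Flox against 654, 779 and 759.8 FPKM in HepKO livers, and every HepKO value lay below every Flox value. The means differed 1.35-fold (log2 fold change -0.44, SE 0.11, adjusted p = 0.034). HepKO replicate 1, the library with the high mitochondrial share, had the lowest Mgst1 level, and leaving it out ended the call (log2 fold change -0.36, adjusted p = 0.057). So did leaving out Flox replicate 2 (0.11), Flox replicate 3 (0.11), HepKO replicate 2 (0.072) or HepKO replicate 3 (0.055).

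Mgst3 had 9.83, 16.6 and 13.4 FPKM in Flox against 4.89, 6.85 and 6.37 FPKM in HepKO livers. The groups did not overlap, and the means of 13.3 and 6.04 FPKM differed 2.20-fold (log2 fold change -1.0, SE 0.20, limma adjusted p = 0.017). Adjusted p passed 0.05 without Flox replicate 2 (0.0505), Flox replicate 3 (0.058) or HepKO replicate 1 (0.0533). Mgst2 averaged 0.0515 and 0.0403 FPKM and was not tested. Gsto2 and Gstt4 were likewise too low to test, with means of 0.0365 and 0.0473 FPKM and of 0.0197 and 0.0187 FPKM.

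**Figure D2:**
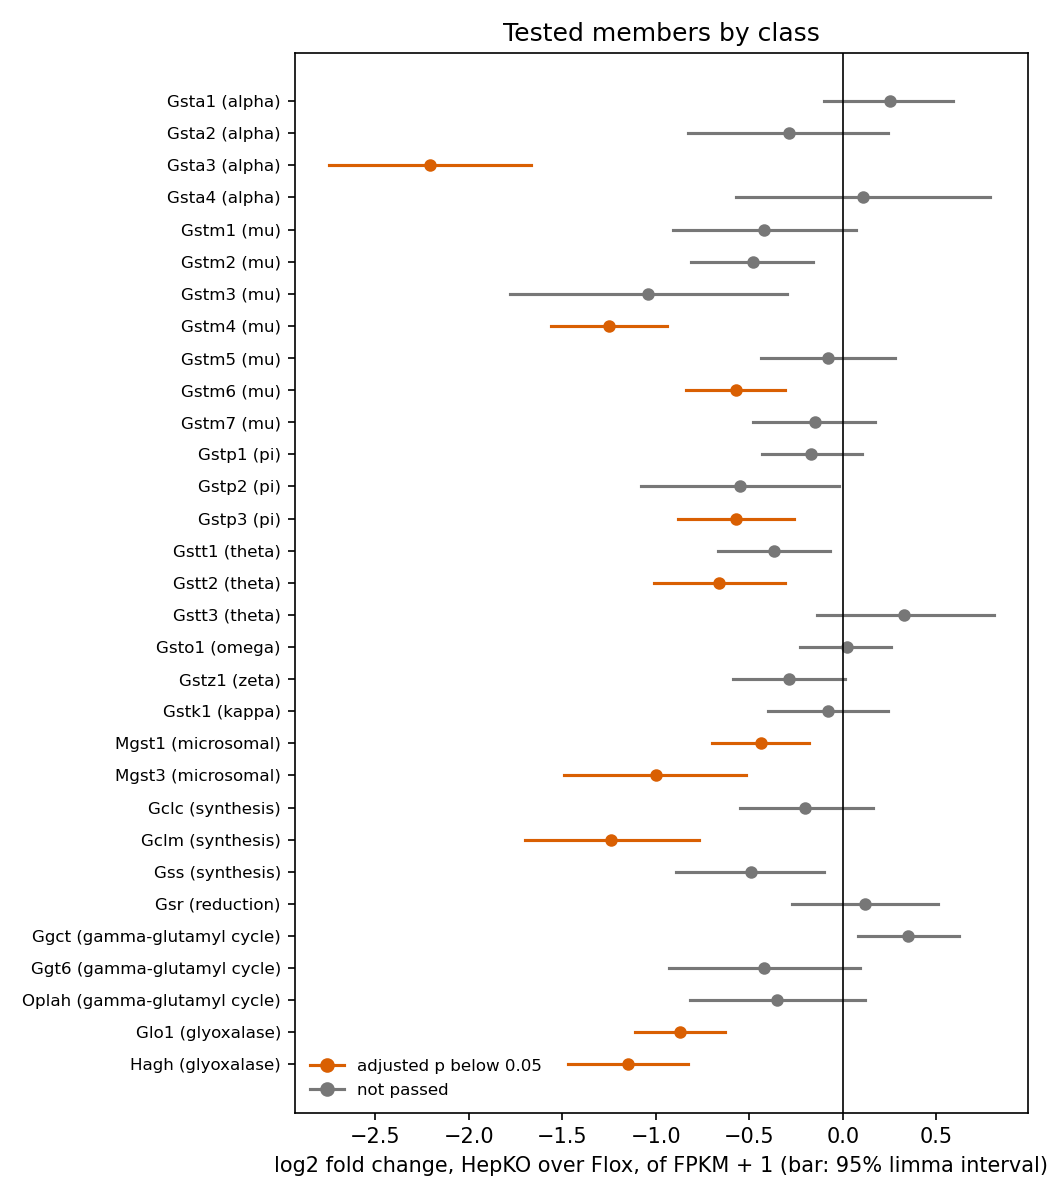
Log2 fold change of HepKO over Flox on the log2(FPKM + 1) scale with 95% limma intervals for the 31 tested members, grouped by class. The 10 orange genes passed at adjusted p 0.05 and all lie below 0, from -0.44 for Mgst1 to -2.21 for Gsta3, while grey genes did not pass.

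Within glutathione synthesis, 1 of 3 genes passed, the modifier subunit of glutamate-cysteine ligase. Gclc, the catalytic subunit, had 239, 190 and 266 FPKM in Flox against 194, 186 and 220.1 FPKM in HepKO livers, with overlap and without a call (log2 fold change -0.20, 95% interval -0.55 to 0.16, adjusted p = 0.38). Gclm, the modifier that makes the ligase less sensitive to feedback by glutathione, had 40.2, 25.0 and 27.4 FPKM in Flox against 12.9, 13.6 and 10.5 FPKM in HepKO livers. The groups did not overlap, and Gclm fell 2.51-fold (log2 fold change -1.24, SE 0.19, adjusted p = 0.0073). The ratio of Gclc to Gclm was 5.95, 7.61 and 9.71 in the Flox livers and 15.1, 13.7 and 20.9 in the HepKO livers. Gclm lies on chromosome 3 (122245557 to 122270732, ENSMUSG00000028124). Gm17494, on its opposite strand, had 6.02 and 10.1 FPKM in Flox and HepKO livers.

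Gss, which adds glycine, had 22.4, 28.8 and 32.1 FPKM in Flox against 17, 18.7 and 22.4 FPKM in HepKO livers. The highest HepKO and lowest Flox values met near 22.4 FPKM, and the gene did not pass (adjusted p = 0.080), though it did without Flox replicate 1 (adjusted p = 0.040). Gsr, the reductase, had 66.5, 50.8 and 71.7 FPKM in Flox against 59.9, 66.6 and 78.1 FPKM in HepKO livers. Its ranges overlapped, and the log2 fold change of 0.12 had an interval of -0.27 to 0.51 and became -0.03 without Flox replicate 2.

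Genes of the gamma-glutamyl cycle, through which glutathione is cleaved and its parts recovered, gave no calls among 3 tested, with 1, Ggct, higher at an unadjusted p of 0.05. Oplah, which opens 5-oxoproline to glutamate, had means of 24.0 and 18.3 FPKM, with Flox replicate 1 at 31.9 FPKM above the 19.9 and 20.3 FPKM of the other Flox livers. Ggt6 had 4.12 and 2.82 FPKM. Ggct, the gamma-glutamylcyclotransferase, was low, with 0.818, 0.793 and 0.659 FPKM in Flox against 1.02, 1.33 and 1.38 FPKM in HepKO livers. Its groups did not overlap, it did not pass (adjusted p = 0.070), and it passed only after median-ratio rescaling (0.043). Ggt1, the main glutathione-cleaving ectoenzyme of many tissues, had 0.0239 and 0.123 FPKM and Ggt5 0.525 and 0.348 FPKM, both too low for the test, although the ranges of Ggt1 did not overlap.

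The glyoxalase pair fell together. Glo1 and Hagh encode the enzymes that use glutathione in sequence to turn methylglyoxal into lactate. Glo1 had 9.38, 10.4 and 10.4 FPKM in Flox against 4.68, 5.36 and 5.13 FPKM in HepKO livers, with tight and separate groups (1.99-fold, log2 fold change -0.87, SE 0.10, limma adjusted p = 0.0025). Hagh had 90.5, 96.1 and 84.4 FPKM in Flox against 34.5, 39.5 and 47.2 FPKM in HepKO livers, also separate (2.24-fold, log2 fold change -1.15, SE 0.14, adjusted p = 0.0027). Hagh lies on chromosome 17 (24840143 to 24864450, ENSMUSG00000024158) and overlaps Fahd1 on the opposite strand, which had 36.7 FPKM in Flox against 11.6 FPKM in HepKO livers. The libraries were prepared so as to mark strand, but whether the authors' quantification used it is not stated, so the reads of this pair may not have been told apart.

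Summed over the 25 transferases, the level was 3513, 4029 and 3979 FPKM in Flox against 2927, 3301 and 3057 FPKM in HepKO livers. No HepKO sum reached the lowest Flox sum, and the means of 3840.0 ± 285 and 3095 ± 190 FPKM (SD, n = 3) differed 1.24-fold, and 1.17-fold after median-ratio rescaling. Pi genes made up 39.4% of the sum in Flox and 42.2% in HepKO livers, microsomal genes 26.1% and 23.8%, alpha genes 16.1% and 16.1%, and mu genes 12.8% and 11.6%. Reads shared with copies that are not among the 25, such as Gm10639, Gm3776, Gstp-ps and Gstm2-ps1, may lie outside these sums. By mean level, Gsta3 ranked 5 of 25 transferases in Flox and 7 in HepKO livers, while Gstp1 and Mgst1 held the top ranks in both. Without Gsta3 the sums averaged 3618 and 3049 FPKM, 1.19-fold apart.

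**Figure D3:**
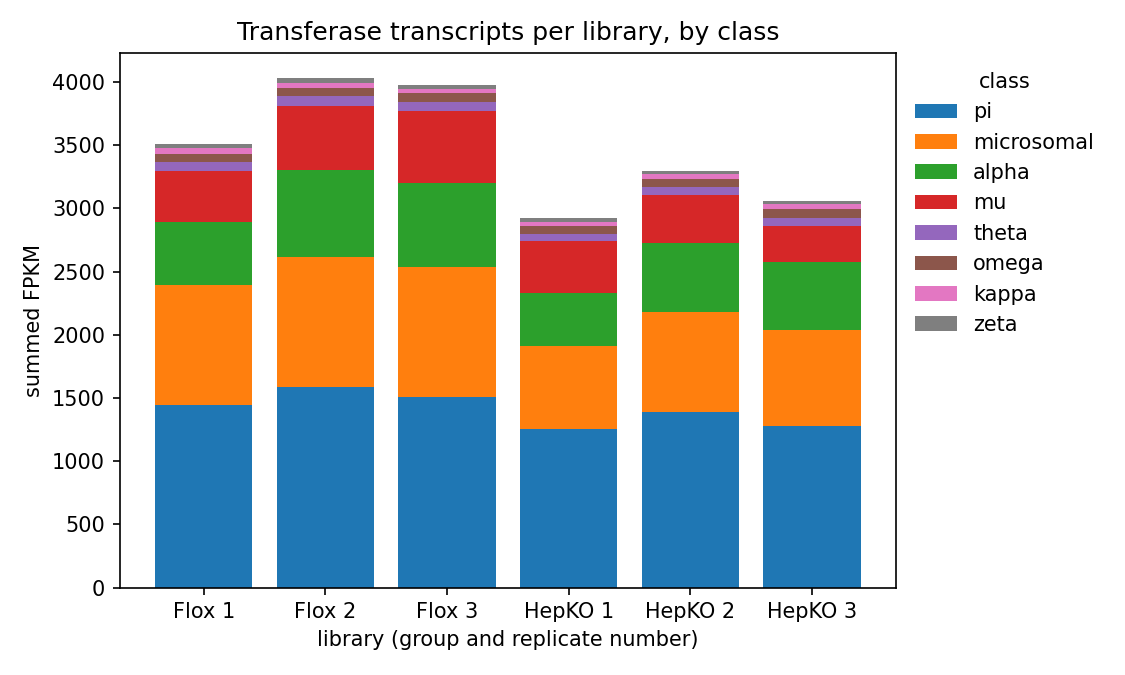
Summed FPKM of the transferases in each of the 6 libraries, stacked by class. Total height is 3513 to 4029 FPKM in the Flox and 2927 to 3301 FPKM in the HepKO livers, and pi and microsomal genes form the larger part of each bar.

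Around the members, 92 other genes were grouped in 8 lists. These cover glutathione handling, but also relatives of the transferases, regulators and NRF2 targets. Of 84 tested, 20 were lower and 15 higher in HepKO livers (23.8% and 17.9%, beside 11.0% and 9.33% of all genes tested), with a median log2 fold change of -0.29. The lists were chosen with earlier results of these data known, so these shares may partly reflect that choice. The list of cysteine supply and glutathione precursors also holds genes that use up cysteine or cleave glutathione. Of its genes, 5 of 14 fell and 1, Cdo1, rose from 616 to 837 FPKM (limma adjusted p = 0.043). Csad, which directs cysteine to taurine, fell from 46.3 to 9.91 FPKM (4.67-fold), Chac2, a glutathione-cleaving cyclotransferase, from 17.3 to 4.64 FPKM (3.74-fold), and Cth, which releases cysteine from cystathionine, from 41.7 to 22.6 FPKM (1.84-fold). The Cth call was lost without HepKO replicate 2 (adjusted p = 0.0512). In NADPH supply, which feeds glutathione reductase, 2 of 8 fell and 1 rose. G6pdx, the entry enzyme of the pentose phosphate pathway, rose 2.83-fold from 5.32 to 15.0 FPKM, and Idh1 fell 2.38-fold from 94.0 to 39.5 FPKM. Me1 had 30.1 and 22.0 FPKM (adjusted p = 0.0469), a call lost whichever library was left out (0.056 to 0.14).

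Among export genes, 3 of 7 fell and 1 rose. Abcc2, the canalicular pump for glutathione and its conjugates, fell from 59.2 ± 4.26 to 31.1 ± 1.64 FPKM (SD, n = 3; log2 fold change -0.91, SE 0.10, limma adjusted p = 0.0023). Abcc6 fell from 11.8 to 4.60 FPKM and Abcg2 from 8.84 to 3.78 FPKM. The export gene that rose was Abcc3, from 26.1 to 41.0 FPKM (limma adjusted p = 0.017). Abcc1 was too low to test, but its mean went up from 0.0705 to 0.618 FPKM, without overlap. In mercapturate formation, by which conjugates are trimmed and acetylated for excretion, 4 of 13 fell and 1 rose. Anpep, an aminopeptidase, fell from 34.2 to 19.7 FPKM and Acy3 from 11.7 to 7.71 FPKM, while Nat8f4, of a multigene family whose shared sequence was not measured here, rose from 4.07 to 9.80 FPKM. The Acy3 call was lost without HepKO replicate 2 (adjusted p = 0.063).

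Genes that use glutathione or act beside it against peroxides had 2 lower and 2 higher of 10. Msrb1, a selenium-dependent methionine sulphoxide reductase, fell 2.00-fold from 194 to 97.2 FPKM, and Prdx6, a peroxiredoxin that uses glutathione, fell 1.62-fold from 118 to 72.8 FPKM. Gpx3, the secreted glutathione peroxidase, rose from 15.6 to 37.2 FPKM. Adjusted p for Prdx6 was above 0.05 without Flox replicate 3 (0.060) or HepKO replicate 2 (0.063), and for Gpx3 without Flox replicate 2 (0.069), Flox replicate 3 (0.062), HepKO replicate 1 (0.056) or HepKO replicate 2 (0.057). Other genes of the transferase fold or of the membrane family had 3 higher and 0 lower of 6, with 0 lower also at an unadjusted p of 0.05. Alox5ap, the leukotriene-pathway protein of leukocytes, rose 5.44-fold from 1.93 to 10.5 FPKM, beside neutrophil markers that summed to 10.6 to 20.1 FPKM in Flox against 131 to 154 FPKM in HepKO livers. All 8 tested neutrophil markers rose, and their part in the Alox5ap result was not tested. Clic4 rose from 12.8 to 25.2 FPKM and Clic1 from 14.1 to 21.4 FPKM, where adjusted p for Clic1 was above 0.05 without Flox replicate 2 (0.060) or HepKO replicate 2 (0.064).

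Regulators of these genes moved in both directions, 5 higher and 2 lower of 14. Nr1i3, the nuclear receptor CAR, which is known to induce transferase and transporter genes in liver, fell 4.46-fold, from 89.1 ± 1.82 to 20.0 ± 1.44 FPKM (SD, n = 3; log2 fold change -2.10, SE 0.10, limma adjusted p = 0.00026). The small MAF genes Maff and Mafk, whose proteins pair with NRF2 or BACH1 at antioxidant response elements, rose 4.13-fold (23.3 to 96.3 FPKM) and 2.53-fold (10.6 to 26.9 FPKM). Nfe2l2, the gene of NRF2, rose from 17.1 to 24.2 FPKM (log2 fold change 0.48, SE 0.09, adjusted p = 0.017), and Bach1, whose protein competes with NRF2 at those elements, rose from 5.28 to 9.62 FPKM (adjusted p = 0.025). Both were named after their values were seen. Adjusted p for Nfe2l2 was above 0.05 without Flox replicate 2 (0.055) or Flox replicate 3 (0.064), and for Bach1 without Flox replicate 2 (0.082), Flox replicate 3 (0.060) or HepKO replicate 2 (0.069). Among NRF2 target enzymes outside the members, 2 of 12 fell and 1 rose. Hmox1, heme oxygenase, rose 6.69-fold from 37.4 to 250.3 FPKM, whereas Ces1g, a carboxylesterase of a multigene family whose shared sequence was not measured either, fell 8.12-fold and Aox1 fell 1.84-fold.

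**Figure D4:**
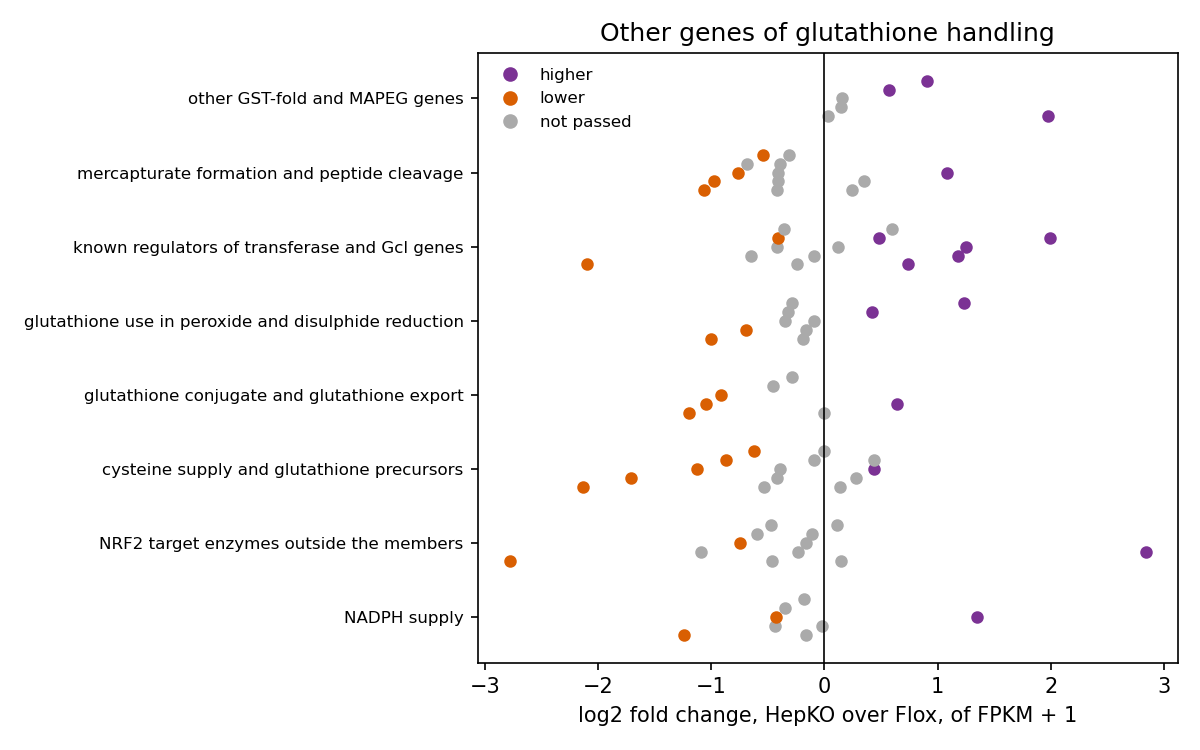
Log2 fold change of HepKO over Flox, on the log2(FPKM + 1) scale, for the 84 tested genes of 8 lists around the members. Purple points passed as higher (15), orange as lower (20) and grey did not pass, with small vertical offsets only to separate points.

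Marker lists were measured beside the members. Of 8 hepatocyte markers, 2 were lower, Hnf4a and Asgr1. Of 6 tested pericentral markers, which label the zone where many transferases and the APAP-activating P450s are known to be most expressed, 3 were lower (Cyp1a2, Axin2 and Gulo) and 1, Glul, was higher. Of 8 periportal markers, 3 were lower (Cyp2f2, Hal and Cps1). Summed pericentral markers were 1011 to 1109 FPKM in Flox against 785 to 941 FPKM in HepKO livers, and periportal ones 1509.9 to 2381 FPKM and 1157 to 1303 FPKM. Summed cholangiocyte markers were 26.1 to 35.9 FPKM and 52.0 to 68.9 FPKM, with 2 of 6 higher, and erythrocyte markers 132 to 234 FPKM and 551 to 974 FPKM, with 4 of 5 higher. Kupffer cell and macrophage markers summed to 106 to 182 FPKM and 171 to 212 FPKM (2 of 12 higher, 1 lower), sinusoidal endothelial markers to 31.5 to 39.7 FPKM and 35.0 to 46.6 FPKM (3 of 8 higher, 1 lower) and stellate cell markers to 27.8 to 36.5 FPKM and 41.9 to 59.4 FPKM (2 of 9 higher, 1 lower). T, NK and B cell markers were all too low to test, with sums of at most 1.39 FPKM and Ms4a1 at 0 throughout, and the kidney and pancreas markers in the table summed to at most 3.64 FPKM. The pericentral, cholangiocyte and stellate cell sums came mostly from Cyp2e1, Spp1 and Dcn, in that order. Mean FPKM, Flox first, was 915 and 765 for Cyp2e1, which did not pass. It was 26.9 and 44.9 for Spp1, and 18.6 and 33.4 for Dcn. Median log2 fold changes of the 3 lists' tested genes were -0.58, 0.42 and -0.1, with 5 of 6, 0 of 6 and 6 of 9 below 0. These sums therefore do not speak for the other genes of a list. The part of the marker lists in the differences of the members was not tested.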

How the data were processed

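Whole-liver poly(A) RNA from 3 Flox and 3 HepKO libraries was sequenced as paired reads with a strand-marking preparation, per the labels' protocols. The authors deposited FPKM per gene and library, per the file headers, with a q-value from their own comparison by a tool that is not stated. DESeq2, edgeR, StringTie 1.3.4d, HISAT2 2.0.4 and cutadapt 1.9 appear in the submitters' processing notes, with neither a role nor a genome build. Of the members, 30 of 36 have the coordinates of GENCODE M21 (GRCm38), so coordinates are given as GRCm38. Since FPKM is a normalized unit, count models were not used. Ratios of FPKM below 0.2 between libraries showed no common step (modal bins of 0.02 on the log2 scale held 3.21% to 4.47% of genes), so depth is unknown.

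The two-sided test was limma 3.58.1 (R 4.3.3), fitted to log2(FPKM + 1) of the 12712 genes whose mean reached 0.5 FPKM. Genotype was its single term, a variance trend was included, and p-values were adjusted by Benjamini-Hochberg over all these genes, with calls at 0.05. This scale understates changes of low genes. Folds are ratios of mean FPKM. The test was checked on simulated data. Shared sequence is the share of a gene's 100-base stretches, over its GENCODE transcripts, found in another gene's transcripts.

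The members and gene lists were chosen with earlier results of these data known. Values of every library are given for members that passed, for the 6 most abundant and for Gclc, Gclm, Gss and Gsr, and up to 3 genes with the smallest p per list are named by rule. Single-library values of Gstm3, Ggct and Oplah were added after they were seen. The same holds for means of the overlapping genes, Nfe2l2, Bach1, Cebpb, Mafg, Cdo1, Abcc1 and Abcc3. It also holds for the markers Apoa1, Cyp2e1, Spp1 and Dcn. Dpep2 and Nnt, listed 2 times each in the table, were left out. The pseudocount, the filter, the scaling, the limma options and the threshold were each varied, a replicate block was added, and each library was left out in turn.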

Additional observations from a re-analysis of the deposited data

How the results depend on the processing

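The number of members lower in HepKO livers stayed between 7 and 12 under other pseudocounts, filters, rescalings, limma settings and the replicate block, and was 5 at an adjusted p of 0.01. Leaving out each library in turn gave 5 to 10 lower members and 0 higher, 11 to 21 lower and 9 to 15 higher companion genes, and 612 to 1303 lower and 669 to 1035 higher genes of all tested, against 1397 and 1186 with all libraries. At adjusted p 0.01 the companion genes came to 11 lower and 7 higher, and all genes to 431 lower and 508 higher. Without a filter 899 genes were lower. After median-ratio rescaling 1 member, Ggct, was higher, and all 10 members lower before remained; the calls over all genes went from 45.9% to 55.8% higher. Setting every library to the same total FPKM, an alternative added after seeing the data, gave 12 lower members. The median log2 fold change of all genes lay between -0.101 and 0.004 over the rescalings.

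With the replicate number as a block, 7 members, 775 genes lower and 776 genes higher passed; Mgst1, Gstp3 and Gstt2 no longer did (adjusted p = 0.075, 0.073 and 0.072). Same-numbered libraries did not deviate together (r across genes 0.00292, 0.00206 and -0.0255), and the labels state no pairing. With 3 libraries per group, such correlations cannot exclude a pairing by number. The sign of Gsr turned without Flox replicate 2 (log2 fold change -0.03, and -0.03 to 0.22 over the 6 libraries left out). Leaving out 1 library also turned Gsta4 (-0.23 to 0.31), Gstk1 (-0.18 to 0.02), Gstm5 (-0.23 to 0.01) and Gsto1 (-0.04 to 0.06), of which none passed in any. Without a filter, where 26473 genes were fitted, Mgst1 and Gstt2 did not pass (limma adjusted p = 0.091 and 0.0526). The cause of the lost calls was not tested. The 5 members under 0.5 FPKM were tested only without a filter, where none of them passed, and 3 libraries per group limit the precision of all others.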

Other observations

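Gstm2-ps1, a pseudogene on chromosome 5 left out by the choice of members, had 17.9, 23.1 and 33.4 FPKM in Flox against 17.9, 18.9 and 18.1 FPKM in HepKO livers. Its level was above that of Gstm2 (8.03 and 5.52 FPKM), it shares 100-base stretches with Gstm1 and Gstm3, and it did not pass (limma adjusted p = 0.25).

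Acss2, on the strand opposite to Gss, averaged 3.54 FPKM in Flox against 1.93 FPKM in HepKO livers. Pomt2, opposite to Gstz1, averaged 3.15 and 2.16 FPKM.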
